A study of Mus musculus with 3 samples.

Results

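The levels of 6 genes of the T follicular helper (TFH) programme, Bcl6, Cxcr5, Maf, Sh2d1a, Slamf1 and Pou2af1, were followed in donor T cells from mice with graft-versus-host disease that received a calcineurin inhibitor. The genes were taken by name from the count table, in which all 6 of 6 were found among 18029 genes, and their UMI counts were added up per pool in CD4+ T cells, in CD8+ T cells and in every cluster. Irradiated B6D2F1 recipients were given B6 bone marrow, B6 T cells and a small number of TEa T cells, which carry a transgenic T cell receptor for a recipient alloantigen. From day 0 to day 6 they received saline or cyclosporine (CSA) every day, the latter at a low dose (5 mg/kg) or a high dose (50 mg/kg), and their spleens were taken on day 7. All groups shared the transplant, the donor T cells and the TEa cells, and differed in the agent or its dose and in the droplet capture. There were 6 mice per group, and the spleens of 2 mice were combined, so that each group held 3 pools and the series 9. The mice's age was not given in the sources used here, and the sorted CD4+ and CD8+ donor T cells were combined and run as 1 droplet capture per group. A capture and its treatment cannot be told apart, and the p-values measure the spread between pools of 1 capture.

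TFH cells are CD4+ T cells that move into B cell follicles and help B cells through germinal centre reactions. Bcl6 is the transcriptional repressor that defines the lineage, and Cxcr5 is the chemokine receptor that brings the cells into the follicle. Maf is a transcription factor that promotes the TFH cytokines interleukin-21 and interleukin-4. Slamf1 (CD150) is a surface receptor that binds itself on a neighbouring cell and signals through the adaptor SAP, which Sh2d1a encodes and which T cells need for lasting contact with B cells. Pou2af1 (OCA-B) is a coactivator of the octamer factors, best known in B cells and also active in TFH cells. Calcineurin, the target of CSA, removes phosphates from NFAT proteins and so lets these transcription factors enter the nucleus after T cell receptor signalling.

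After cells marked TEa were left out, the CD4+ pools held between 3994968 and 7592334 UMIs (unique molecular identifiers, each standing for 1 captured RNA molecule), and the CD8+ pools between 4392100 and 11454636. Median UMIs per cell rose with dose, from 3097 with saline to 4396 and 5979.5 in CD4+ T cells and from 4108 to 6121.5 and 7183 in CD8+ T cells. In all, 436 of 21204 cells carried a barcode that was also found in another capture. Leaving those cells out changed no call for a member in either lineage. Cd4 had no UMI in any CD8+ T cell and Cd8a none in any CD4+ T cell. These zeros do not show that the lineages were pure, since Cd8b1, the other CD8 chain, was not absent from CD4+ T cells. Scaled by library size it was at 147 CPM there with saline, 91.7 CPM at the low dose and 23.3 CPM at the high dose, beside 1307, 1445 and 2692 CPM in CD8+ T cells, and its part in the results for the members was not tested. Levels of sums over a pool are given as CPM (UMI counts scaled to 1000000 per library) with TMM scaling, which sets the typical gene of each pool to the same level, with the mean ± SD of 3 pools where 1 value is printed. A gene was called changed at an adjusted p under 0.05 in edgeR's quasi-likelihood test, adjusted over all genes tested by the Benjamini-Hochberg method.

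In the mouse genome (mm10, GENCODE annotation), Slamf1 lies at chr1:171767127-171801184 on the plus strand and Maf at chr8:115682942-115707794 on the minus strand. Cxcr5 (chr9:44511787-44561877, minus) and Pou2af1 (chr9:51213708-51240080, plus) share a chromosome. Bcl6 lies at chr16:23965052-23988852 on the minus strand, and Sh2d1a at chrX:42502453-42529330 on the plus strand. Promoters of 3 of the 6 genes, Slamf1, Bcl6 and Pou2af1, were in the RefSeq table used here (GRCm38.p6), and those of Cxcr5, Maf and Sh2d1a are not shown. They are printed to set Slamf1 and Bcl6, which were lower in both lineages at the high dose, beside Pou2af1, which was not. Each is the 250 bases before a transcription start, 5′ to 3′ on the gene's strand, with GGAAA or its complement TTTCC, the core that NFAT proteins recognise, in capitals. The Slamf1 window is at chr1:171766882-171767131, the Pou2af1 window at chr9:51213440-51213689, the window of the first Bcl6 start at chr16:23988853-23989102 and that of a second Bcl6 start inside the gene at chr16:23981284-23981533.
Slamf1: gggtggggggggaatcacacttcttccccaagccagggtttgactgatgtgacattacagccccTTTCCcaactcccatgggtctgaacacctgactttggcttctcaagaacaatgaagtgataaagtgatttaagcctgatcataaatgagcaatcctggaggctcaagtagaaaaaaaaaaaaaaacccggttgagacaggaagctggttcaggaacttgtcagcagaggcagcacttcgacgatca
Pou2af1: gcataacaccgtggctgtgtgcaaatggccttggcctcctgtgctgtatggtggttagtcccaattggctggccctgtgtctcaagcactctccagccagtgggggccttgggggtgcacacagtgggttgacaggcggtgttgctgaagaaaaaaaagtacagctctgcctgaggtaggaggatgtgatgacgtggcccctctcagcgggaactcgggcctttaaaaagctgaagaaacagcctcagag
Bcl6, first start: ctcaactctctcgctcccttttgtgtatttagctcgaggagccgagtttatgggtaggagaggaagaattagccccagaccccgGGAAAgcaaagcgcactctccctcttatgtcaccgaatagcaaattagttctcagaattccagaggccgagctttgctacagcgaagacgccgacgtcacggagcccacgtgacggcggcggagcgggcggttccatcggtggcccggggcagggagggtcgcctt
Bcl6, second start: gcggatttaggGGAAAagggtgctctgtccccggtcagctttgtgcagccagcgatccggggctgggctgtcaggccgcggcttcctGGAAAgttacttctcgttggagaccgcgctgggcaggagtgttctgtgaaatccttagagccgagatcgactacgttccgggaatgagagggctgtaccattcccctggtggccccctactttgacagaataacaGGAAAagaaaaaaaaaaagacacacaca
The core stood once before Slamf1, once before the first Bcl6 start and 3 times before the second, and did not occur before Pou2af1. In both directions it was found in 18254 of 32851 windows of this length, or 55.6%, so its presence is common. The AP-1 motif TGANTCA, which NFAT often binds beside, was in 2217 windows (6.75%) and in none of the 4 shown. No match of letters is a binding site by itself.

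In saline-treated mice, Bcl6 and Cxcr5 were highest in the cluster the authors named TFH (C4), while Slamf1, Sh2d1a and Maf were each highest elsewhere. The same counts had served to define the clusters, so these levels are a description with no test. Cxcr5 was at 180.8 ± 12.1 CPM in C4, and Bcl6 was at 72.2 ± 1.4 CPM. The Tcf7hi precursor-like cluster C2 came second for Cxcr5 at 86.6 ± 24.1 CPM, followed by the CD4+ CTL cluster C7 at 70.1 ± 18.7 CPM, the Isg15hi cluster C10 at 66.1 ± 16.5 CPM and the Fcer1ghi cluster C8 at 52.8 ± 14.6 CPM, and these last 4 overlapped within their spread. For Bcl6 the order after C4 was C7 at 50.6 ± 25.7 CPM, C8 at 35.4 ± 23.2 CPM, C10 at 31.9 ± 19.2 CPM and C2 at 24.5 ± 1.6 CPM, again within the spread of the pools. In the effector clusters C0 and C1, Cxcr5 was at 5.93 and 6.34 CPM and Bcl6 at 6.40 and 4.58 CPM. Pou2af1 was low everywhere, at 18.8 ± 9.3 CPM in C7, 14.8 ± 3.2 CPM in C4 and 11.3 ± 0.1 CPM in C2.

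Slamf1 had another distribution. Its highest levels were in the cycling clusters C5 (129.6 ± 18.3 CPM) and C6 (124.8 ± 6.5 CPM) and in the Cd226hi effector cluster C0 (121.7 ± 11.1 CPM), whereas C4 was at 36.2 ± 6.6 CPM and C2 at 28.4 ± 5.0 CPM. Sh2d1a was found in every cluster and was highest, among clusters with 3 pools, in C2 (291.3 ± 21.3 CPM) and C4 (227.7 ± 2.7 CPM). Maf lay between 95.2 and 168.3 CPM in the clusters with 3 pools other than naive-like C9, where it was at 7.15 ± 7.08 CPM. The Th17 cluster C12 reached 602.5 CPM of Maf in the only pool with enough cells. In CD8+ T cells, Cxcr5 was concentrated in C5, a Tcf7hi cluster that the authors describe as a mix of TFH-like and precursor-like cells, at 39.8 ± 14.8 CPM, and the other CD8+ clusters were between 0.518 and 3.11 CPM. Bcl6 was highest in the exhausted cluster C8 (14.4 ± 5.2 CPM) and in C5 (13.1 ± 3.3 CPM), which overlapped.

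**Figure D1:**
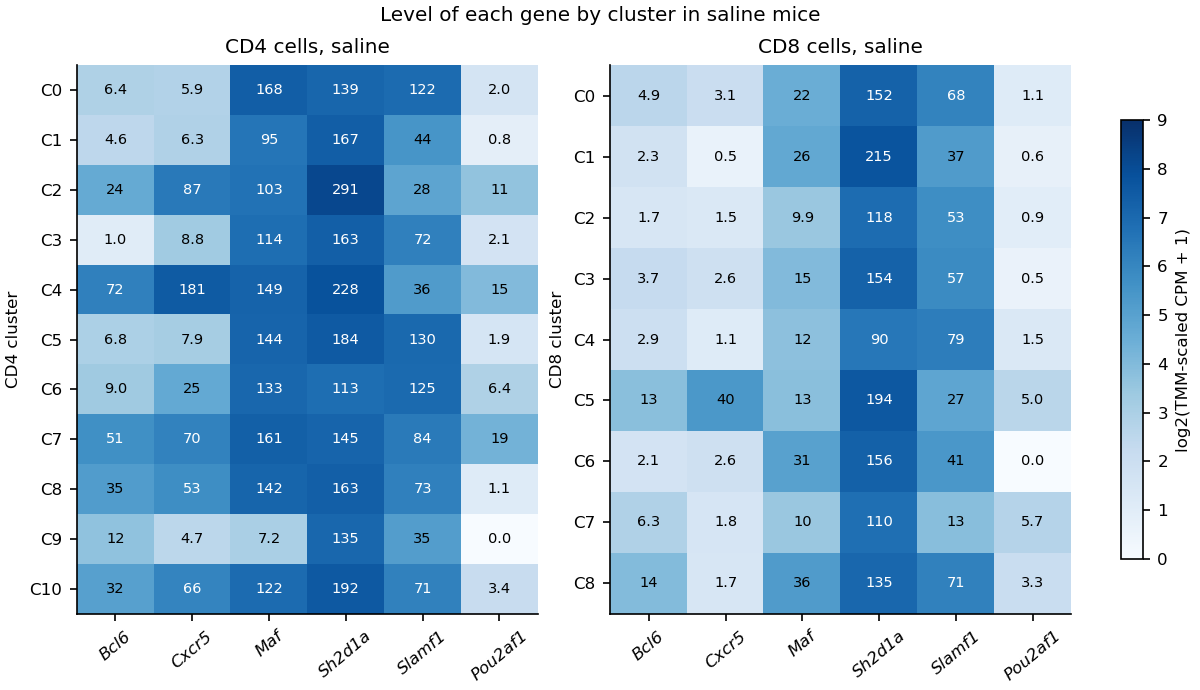
Heat map of the 6 genes (columns) in CD4+ and CD8+ clusters (rows) of saline-treated mice. Colour is log2(CPM + 1) and the printed number is the mean TMM-scaled CPM over pools with at least 10 cells. Bcl6 (72.2 CPM) and Cxcr5 (180.8 CPM) peak in CD4+ C4, while Slamf1 is highest in C5, C6 and C0.

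Genes whose saline profile over 20 clusters was most like that of a member (Pearson's r of log2(CPM + 10) among 9996 genes, a description across clusters that share libraries) differed between members. For Cxcr5 these were Sostdc1 (0.97), Csgalnact1 (0.94) and Slamf6 (0.94). For Bcl6 they were Igf1r (0.91), Synj2 (0.91) and Rnf19a (0.90), for Maf they were Asb2 (0.93), Cd40lg (0.90) and Tnfrsf4 (0.88), and for Slamf1 they were Tmem154 (0.92), Il12rb2 (0.92) and Zmiz1 (0.89). Sh2d1a was most like 2310001H17Rik (0.88), Cd3g (0.82) and Gm8369 (0.80), and the genes most like Pou2af1 included Padi4 (0.83) and Angptl2 (0.82). Between members, Bcl6 and Cxcr5 had r = 0.88 and Pou2af1 and Cxcr5 r = 0.78, while Slamf1 had r = −0.06 with Cxcr5 and −0.03 with Bcl6.

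Cxcr5, Bcl6 and Slamf1 were lower in CD4+ T cells of mice given high-dose CSA, and Maf, Sh2d1a and Pou2af1 were not called different from saline there. The comparison asks how the dose of CSA altered the TFH programme. Of the 6 members 3 were called, all of them lower, where 70.5% of all genes tested were called and 35.8% were called lower. The count of members was thus below the share for either direction and above the share called lower, and neither difference was tested. A sum over a pool cannot tell apart fewer cells of a type and less RNA per cell. Cxcr5 was at 45.4, 55.4 and 41.3 CPM in the saline pools, 36.3, 33.6 and 32.6 CPM at the low dose, and 1.89, 1.5 and 2.83 CPM at the high dose. The 3 groups of pools did not overlap at any step. Expressed as UMIs, Cxcr5 went from 862 to 476 and then 39. The change at the high dose was −4.48 ± 0.18 (log2 ± SE, 22.4-fold lower, adjusted p = 3.73e-15), and at the low dose it was −0.48 ± 0.11 (adjusted p = 0.000822).

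Bcl6 followed the same order with smaller steps. The saline pools were at 18.4, 24 and 20.6 CPM, the low-dose pools at 14.7, 14.7 and 13 CPM and the high-dose pools at 4.13, 4.0 and 3.28 CPM, again with no overlap. Bcl6 was lower by 2.48 ± 0.16 on the log2 scale at the high dose, a 5.57-fold drop (log2 −2.48, adjusted p = 1.78e-11), and its change at the low dose was −0.59 ± 0.13 (adjusted p = 0.000865). Between the 2 doses Cxcr5 fell by 4.0 and Bcl6 fell by 1.88 on the log2 scale, both past the threshold, where 41.2% of all genes were called.

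Slamf1 pools were at 80.3, 82.9 and 90 CPM in saline, 59.0, 76.4 and 76.5 CPM at the low dose and 24.1, 16.7 and 17.0 CPM at the high dose. All pools given the high dose lay below all others. The change at the high dose was −2.14 ± 0.11 (4.42-fold lower, adjusted p = 4.42e-13). At the low dose it was −0.25 ± 0.10 (adjusted p = 0.0338), and this call rested on single pools: the value was −0.14 without the first low-dose pool (adjusted p = 0.211) and −0.20 without the third saline pool (adjusted p = 0.141), and it also lost the threshold without the second saline pool (−0.26, adjusted p = 0.0549).

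**Figure D2:**
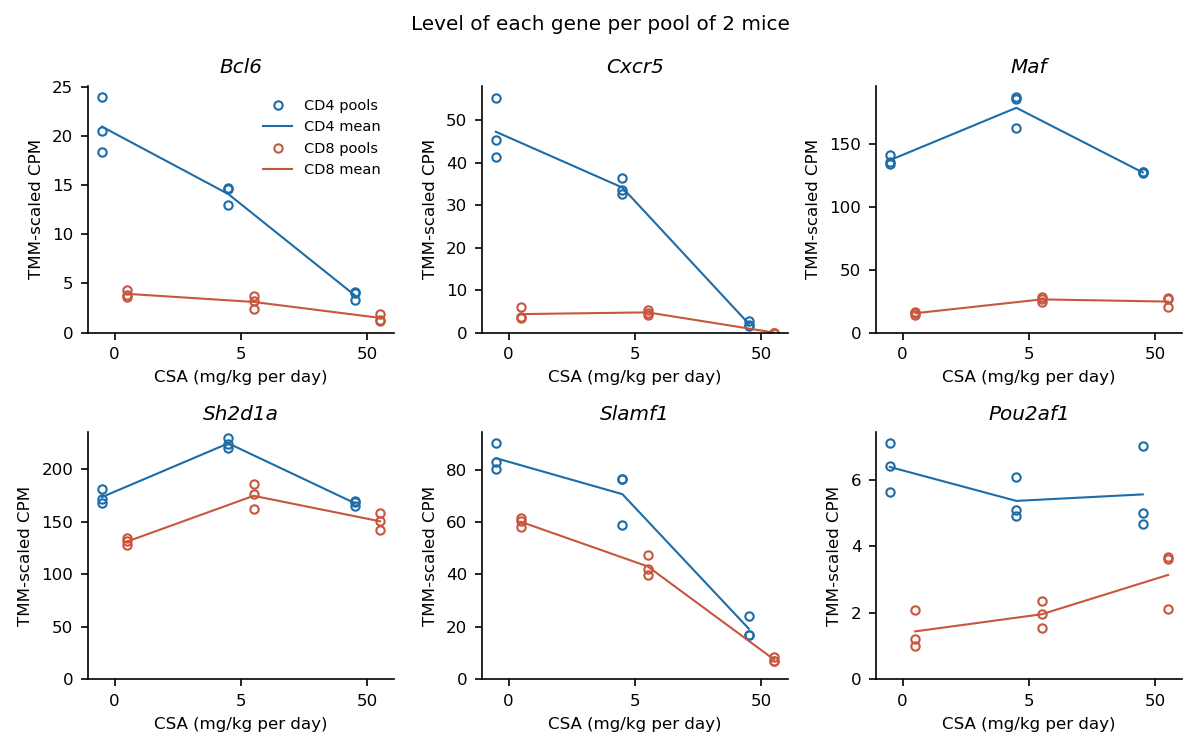
TMM-scaled CPM of each gene (1 panel per gene) by CSA dose in mg/kg, with 1 point per pool and CD4+ and CD8+ T cells in separate colours. In CD4+ T cells Cxcr5 runs from 41.3 to 55.4 CPM with saline and from 1.5 to 2.83 CPM at the high dose, while Maf and Sh2d1a are highest at the low dose in both lineages, except for Maf in CD8+ T cells, where the 2 doses overlap.

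Maf and Sh2d1a moved in another way in CD4+ T cells. Maf was at 141, 136 and 134 CPM in saline, 163, 187 and 186 CPM at the low dose and 127, 127 and 127 CPM at the high dose. Sh2d1a was at 171, 181 and 168 CPM in saline, 230, 220 and 224 CPM at the low dose and 169, 169 and 165 CPM at the high dose. The low-dose pools were above every other pool for both genes. With 5 mg/kg Maf rose by 0.39 ± 0.05 (adjusted p = 3.33e-06) and Sh2d1a by 0.37 ± 0.05 (adjusted p = 6.65e-07) on the log2 scale with TMM scaling. Scaling by library size, which shifts the median of all genes by −0.37 at the low dose and −0.45 at the high dose, left 0.03 for Maf (adjusted p = 0.631) and 0.01 for Sh2d1a (adjusted p = 0.83), so both stood above the typical gene under either scaling but rose past the threshold under TMM alone. In all, 5 of the 6 members were called here, 3 lower and 2 higher, against 51.7% of all genes. The pools of 5 of 6 members did not overlap those of saline at this dose, and of 4 of 6 at the high dose, where 57.7% and 72.7% of all genes had no overlap.

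At the high dose Maf differed from saline by −0.11 ± 0.05 (adjusted p = 0.086) and Sh2d1a by −0.05 ± 0.05 (adjusted p = 0.321). With library size scaling both were called lower there, at −0.54 (adjusted p = 7.69e-09) and −0.49 (adjusted p = 4.70e-09), close to the shift of −0.45 in the typical gene. Pou2af1 had few counts, with 114, 75 and 104 UMIs over the 3 groups. Its pools lay between 5.62 and 7.11 CPM in saline, between 4.90 and 6.09 CPM at the low dose and between 4.67 and 7.00 CPM at the high dose, and overlapped. The change was −0.24 ± 0.22 (adjusted p = 0.389) at the low dose and −0.17 ± 0.21 (adjusted p = 0.466) at the high dose. Library size scaling gave −0.60 (adjusted p = 0.0237) and −0.61 (adjusted p = 0.0118).

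The share of CD4+ T cells in C4 fell with dose, and at the low dose most UMIs of Cxcr5 lay in C2, where C4 had held the largest part with saline. C4 held 733, 189 and 45 cells, or 18.1 ± 0.7%, 6.42 ± 1.10% and 1.47 ± 0.37% of CD4+ T cells, and C2 held 11.1%, 20.5% and 9.98%. C4 cells had median UMI numbers of 2475, 1506 and 2053, which was 0.80, 0.34 and 0.34 of the median of all CD4+ T cells in the same group. Of the Cxcr5 UMIs in saline, 48.6% (419 of 862) were in C4 and 19.4% in C2. With low-dose CSA C4 held 9.03% (43 of 476) and C2 60.3%, and at the high dose C2 held 22 of the 39 left, or 56.4%. Bcl6 had 43.1% of its saline UMIs in C4 (166 of 385) and 12.2% in C2, and at the low dose 9.69% in C4 and 43.9% in C2. Pou2af1 had 29.8% of its UMIs in C4 with saline and 46.7% in C2 at the low dose.

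**Figure D3:**
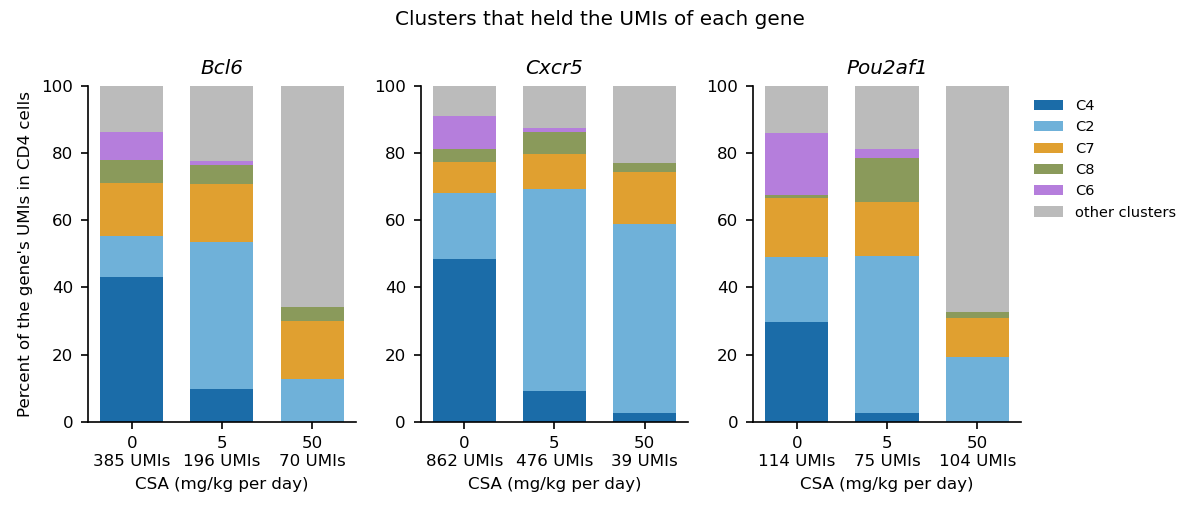
Stacked bars of the percent of all CD4+ UMIs of Bcl6, Cxcr5 and Pou2af1 that lay in clusters C4, C2, C7, C8, C6 and the others, by treatment. C4 carried 48.6% of Cxcr5 UMIs with saline and 9.03% at the low dose, while C2 went from 19.4% to 60.3%.

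In CD4+ T cells outside C4, neither Cxcr5 nor Bcl6 was called lower at the low dose with TMM scaling, and both were at the high dose. Outside C4, Cxcr5 averaged 28.1 CPM in saline, 31.7 CPM at the low dose and 2.01 CPM at the high dose, and Bcl6 averaged 13.6, 13 and 3.79 CPM. In the low-dose group the change outside C4 was 0.16 ± 0.14 for Cxcr5 (adjusted p = 0.367) and −0.10 ± 0.17 for Bcl6 (adjusted p = 0.645). Outside C4, 3 of the 6 members were called at this dose (Slamf1 lower, Maf and Sh2d1a higher), where 49.8% of genes were. Library size scaling changed these calls, with 0.09 for Sh2d1a (adjusted p = 0.126) and 0.05 for Maf (adjusted p = 0.490) no longer called and Bcl6 called lower (−0.45, adjusted p = 0.0316). Whether the changes outside C4 differ from those over all CD4+ T cells was not tested. Without the second saline pool the Cxcr5 value there was 0.39 (adjusted p = 0.0236), and in all 9 pools with C2 left out as well as C4 it was −0.55 (adjusted p = 0.0239), so its direction outside C4 depended on C2. With 50 mg/kg Cxcr5 was 13.7-fold lower outside C4 (log2 −3.77 ± 0.23, adjusted p = 7.18e-12), Bcl6 3.66-fold lower (−1.87 ± 0.21, adjusted p = 7.80e-08) and Slamf1 4.88-fold lower (−2.29 ± 0.11, adjusted p = 3.01e-13). These were the 3 members called there, where 68.5% of genes were called. Sh2d1a (−0.00 ± 0.05) and Maf (−0.11 ± 0.06) were not called there at the high dose.

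The same question was put as arithmetic: each cluster was held at its saline level and only its share of the pool's UMIs was allowed to change. For Cxcr5 this gave a log2 change of −0.40 at the low dose, beside −0.47 measured from the group means, and −1.15 at the high dose, beside −4.51 measured. For Bcl6 it gave −0.41 beside −0.57, and −0.96 beside −2.46. At the low dose the shares alone gave most of the measured size for both genes, and at the high dose less than the measured size. The same counts had served to define the clusters, so less RNA of these genes in a cell can itself alter its cluster. The split into shares and levels is therefore a description with no test. Slamf1 was at −0.29 beside −0.26 at the low dose, and at −0.11 beside −2.13 at the high dose. Maf at the low dose went the other way, with −0.16 from the shares and 0.38 measured.

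**Figure D4:**
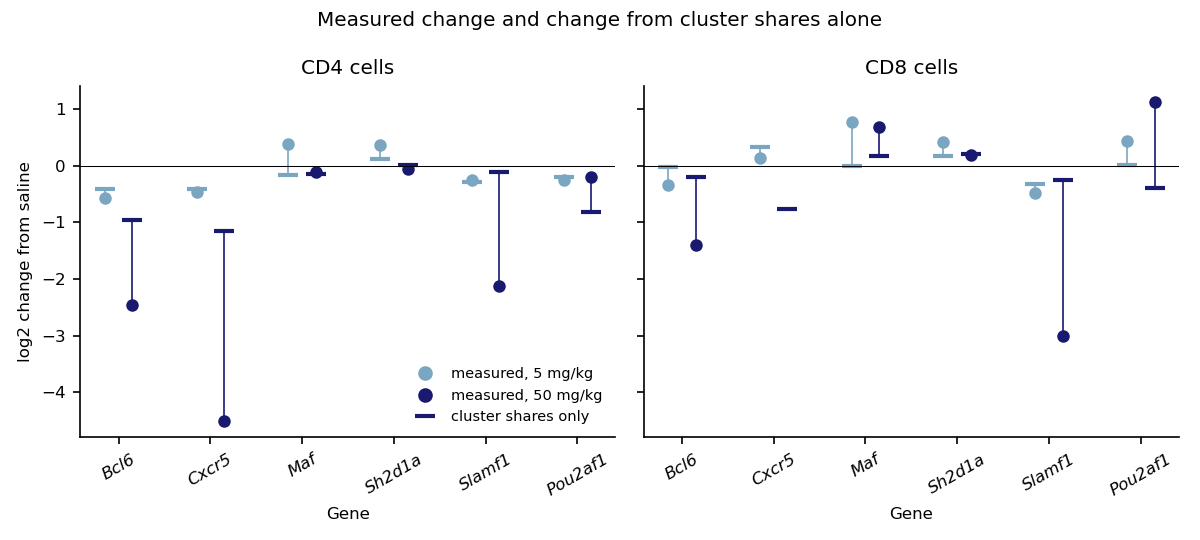
Measured log2 change from saline of each gene against the change obtained when clusters keep their saline level and only their share of UMIs varies, by lineage and dose. Cxcr5 in CD4+ T cells at the high dose was at −4.51 measured and −1.15 from shares alone; Cxcr5 in CD8+ T cells at the high dose had no UMI, so its measured value is left out.

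Within clusters at the high dose, Slamf1 was lower in all 8 CD4+ clusters where it could be tested, and Cxcr5 in all 4. In either lineage, a cluster entered a gene's test through a filter on counts that the saline pools alone could pass. The 4 clusters for Cxcr5 were among those where it was highest with saline, so the numbers of clusters are no separate support. In CD4+ clusters, between 1.24% and 28.2% of genes were called lower in this contrast. Slamf1 changed by between −2.63 and −1.72 in 7 of the 8, from the Cd226hi effector cluster C0 (−1.72 ± 0.17, adjusted p = 4.28e-12) to cycling C5 (−2.63 ± 0.19, adjusted p = 2.23e-12). The eighth, C6, went from 407 UMIs in 443 cells to 1 UMI in 34 cells, and was not called by DESeq2 (adjusted p = 0.0648). Cxcr5 fell in C2 by 2.76 ± 0.28 on the log2 scale (adjusted p = 4.57e-11), from 86.6 ± 24.1 to 14.2 ± 4.4 CPM, and in C7 by 3.74 ± 0.43 (adjusted p = 2.23e-07), from 70.1 ± 18.7 to 5.4 ± 4.4 CPM. In C4 it went from 419 UMIs to 1 and in C8 from 33 to 1, both past the threshold. Bcl6 was tested in C2 and C7 and fell in both, by 2.20 ± 0.46 (adjusted p = 0.000263) and 2.37 ± 0.44 (adjusted p = 0.000183). No Bcl6 UMI was found in the 45 cells left in C4, which had 109331 UMIs in all, and the C4 libraries at this dose are thus small.

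With 5 mg/kg, between 4.09% and 30.3% of genes were called within CD4+ clusters. In C2, Cxcr5 was at 104.3 ± 9.6 CPM and Bcl6 at 31.6 ± 2.9 CPM, and neither was called different from saline (0.04 ± 0.15, adjusted p = 0.939, and 0.13 ± 0.27, adjusted p = 0.868). In C4, Cxcr5 was at 150.9 ± 10.1 CPM (−0.51 ± 0.23, adjusted p = 0.186) and Bcl6 at 70.3 ± 30.2 CPM. The CD4+ CTL cluster C7 was the one cluster where both were called lower, Cxcr5 by −0.86 ± 0.28 (adjusted p = 0.0266) and Bcl6 by −1.0 ± 0.36 (adjusted p = 0.0419). Both calls rested on single pools. Without the second saline pool Cxcr5 was at −0.56 (adjusted p = 0.255) and Bcl6 at −0.48 (adjusted p = 0.475). Cxcr5 also lost the call without the second or the third low-dose pool, and Bcl6 without the first saline pool, without any low-dose pool and without the first or the second high-dose pool. Maf was higher in C0 (0.64 ± 0.12, adjusted p = 0.000114) and in C2 (0.51 ± 0.13, adjusted p = 0.0106), and was called in no other of 10 CD4+ clusters. In C2 it was 0.45 without the third saline pool (adjusted p = 0.0753) and also 0.45 without the third low-dose pool (adjusted p = 0.0907), and 0.38 with library size scaling (adjusted p = 0.0636). Sh2d1a was called in 2 of 11 CD4+ clusters, higher in C10 (0.85 ± 0.28, adjusted p = 0.0323) and lower in C6 (−0.98 ± 0.22, adjusted p = 0.00463), and Slamf1 in 1 of 8, lower in C5 (−0.54 ± 0.18, adjusted p = 0.0243). The C10 call was lost without the first or the third saline pool or the second or the third low-dose pool (from 0.77 to 0.95), and the C5 call without the second saline pool or any low-dose pool (from −0.57 to −0.41). In CD8+ clusters at this dose, where between 1.1% and 37.5% of genes were called, Sh2d1a was higher in 3 and lower in 1 of 9, and Slamf1 was lower in 2 of 8. Of these, the Sh2d1a call in C0 was lost without the second or the third low-dose pool (0.48 and 0.50) and the Slamf1 call in C5 without the second saline pool (−1.15, adjusted p = 0.0534). With library size scaling Sh2d1a was called higher in no cluster of either lineage at the low dose.

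Sh2d1a, which as a sum over CD4+ T cells was near its saline level at the high dose, moved in opposite directions within clusters. Of all genes, between 1.64% and 26.6% were called higher within CD4+ clusters, with 26.6% in C0, and between 1.24% and 28.2% lower. Calls in both directions were thus common. Sh2d1a was higher in C0 (0.82 ± 0.12, adjusted p = 4.39e-08), where its mean went from 138.9 to 244.2 CPM. It was lower in 5 of the other 10 clusters tested, including the precursor-like C2 (−0.69 ± 0.11, adjusted p = 2.38e-06), the Cd226lo effector C1 (−0.60 ± 0.13, adjusted p = 0.000277) and C4 (−1.93 ± 0.44, adjusted p = 0.000651), where 524 UMIs became 7. Of the 5 calls, that of C4 was lost without the first high-dose pool (−1.58, adjusted p = 0.0507), that of C9 without the first saline pool (−1.10, adjusted p = 0.0647), and that of C3 without the second saline pool (−0.24, adjusted p = 0.365) or the third high-dose pool (−0.41, adjusted p = 0.0572). Of 8 CD8+ clusters, 1 was higher, 2 were lower and 5 were not called, with Sh2d1a higher in C0 (0.50 ± 0.10, adjusted p = 2.01e-05) and lower in C1 (−0.81 ± 0.11, adjusted p = 2.20e-07), and the rise in CD8+ C0 was −0.06 with library size scaling. Of all genes, 28.1% were called higher in CD8+ C0 and 13.6% lower in CD8+ C1. Maf at the high dose was higher in C0 (0.47 ± 0.12, adjusted p = 0.000936) and lower in C5 (−0.46 ± 0.15, adjusted p = 0.0136) among 10 CD4+ clusters. The value in C0 was 0.0018 with library size scaling (adjusted p = 0.991), and that in C5 was −0.39 without the first (adjusted p = 0.0612) or the second saline pool (adjusted p = 0.0867). Pou2af1 had too few UMIs to be tested in any cluster.

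**Figure D5:**
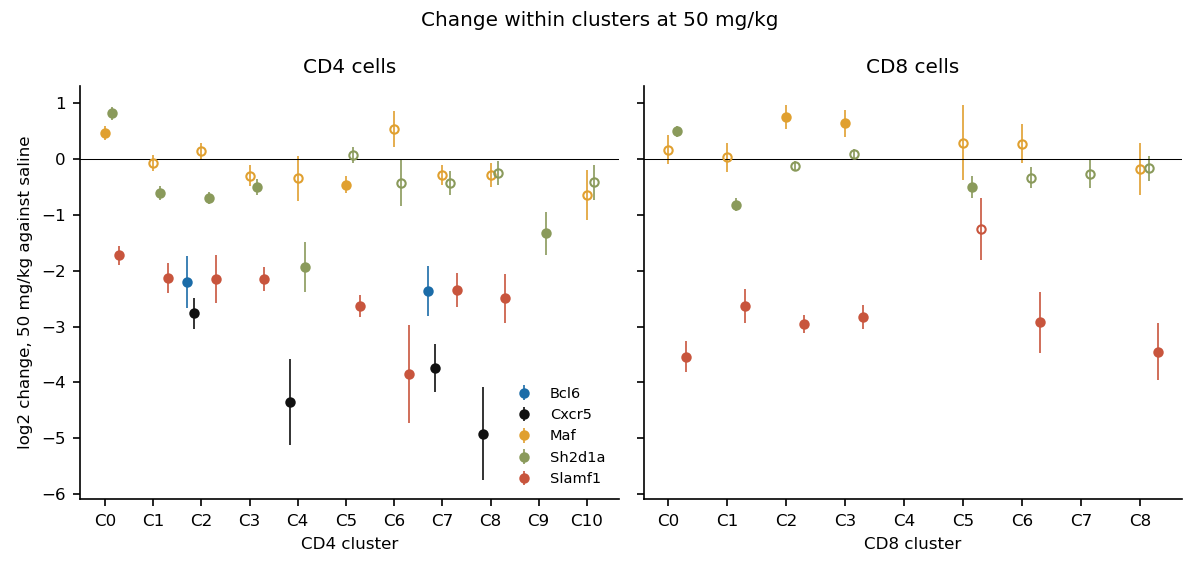
Log2 change ± SE at the high dose against saline within each cluster, by gene and lineage; filled points passed an adjusted p of 0.05 and genes with no UMI at the high dose are left out. Slamf1 and Cxcr5 lie below 0 in every CD4+ cluster shown, while Sh2d1a is at 0.82 in C0 and at −0.69 in C2.

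In CD8+ T cells at the high dose, Cxcr5 was not detected, Slamf1 and Bcl6 fell, and Maf, Sh2d1a and Pou2af1 were higher with TMM scaling. All 6 members were called, where 74.0% of all genes were called. Cxcr5 was at 3.41, 6.02 and 3.64 CPM with saline and 4.68, 5.42 and 4.20 CPM at the low dose, and had no UMI in any of the 3 pools given the high dose. The UMI numbers were 123, 82 and 0. Set against 3 UMIs over the group, which a count of 0 allows, Cxcr5 was at least 36.2-fold lower than with saline and at least 38.5-fold lower than at the low dose. In C5, where 62.6% of its saline UMIs were found, Cxcr5 went from 77 to 55 to 0 UMIs, and the cells of C5 made up 9.63%, 10.4% and 2.13% of CD8+ T cells. With low-dose CSA the sum over CD8+ T cells was not called different from saline (0.10 ± 0.26, adjusted p = 0.76).

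Slamf1 pools were at 61.6, 60.3 and 58.1 CPM in saline, 39.9, 41.9 and 47.4 CPM at the low dose and 6.79, 7.03 and 8.57 CPM at the high dose. The 3 groups did not overlap. Slamf1 was 7.93-fold lower at the high dose (log2 −2.99 ± 0.10, adjusted p = 1.27e-14) and changed by −0.46 ± 0.08 at the low dose (adjusted p = 5.31e-05). Within CD8+ clusters at the high dose it was lower in 6 of 7, by between −3.54 and −2.63, where between 2.26% and 30.3% of genes were called lower. The seventh was C5, with 53 UMIs in saline and 6 at the high dose, where the change was −1.25 (adjusted p = 0.084). Bcl6 was low in CD8+ T cells, at 4.38, 3.81 and 3.64 CPM in saline, 3.69, 3.25 and 2.42 CPM at the low dose and 1.94, 1.33 and 1.22 CPM at the high dose, and was 2.66-fold lower at the high dose (−1.41 ± 0.26, adjusted p = 8.87e-05). It was not called at the low dose (−0.39 ± 0.24, adjusted p = 0.182), where the pools overlapped saline, but was called with library size scaling (−0.81, adjusted p = 0.00636).

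Maf in CD8+ T cells was at 14.0, 16.6 and 15.5 CPM in saline, 26.8, 28.2 and 24.1 CPM at the low dose and 20.1, 26.4 and 27.3 CPM at the high dose, all treated pools being above all saline pools. The rise was 0.76 ± 0.12 (adjusted p = 3.17e-05) and 0.68 ± 0.12 (adjusted p = 3.76e-05), and within clusters it was called higher in cycling C2 and C3 at both doses, of 8 clusters tested at the low and 7 at the high dose. Of all genes, 37.5% were called in C2 and 36.1% in C3 at the low dose, and 54.8% and 58.9% at the high dose. The calls in C3 were lost at both doses without the second or the third saline pool, at the low dose without the second or the third low-dose pool and at the high dose without the third high-dose pool (values from 0.48 to 0.72). Library size scaling, which shifts the typical CD8+ gene by −0.43 and −0.53, gave 0.15 for Maf at the high dose (adjusted p = 0.235). Sh2d1a was at 127, 134 and 131 CPM in saline, 185, 162 and 176 CPM at the low dose and 151, 142 and 158 CPM at the high dose, a rise of 0.41 ± 0.05 (adjusted p = 4.05e-06) and 0.20 ± 0.05 (adjusted p = 0.00283) with TMM. Its direction flipped with library size scaling, to −0.01 (adjusted p = 0.828) and −0.33 (adjusted p = 1.46e-05), so its rise holds relative to the typical gene and not per UMI. With low-dose CSA, 3 of the 6 members were called in CD8+ T cells, against 60.2% of all genes. The pools of 3 of 6 members at the low dose and 6 of 6 at the high dose did not overlap saline, beside 66.0% and 75.8% of all genes.

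Pou2af1 in CD8+ T cells was at 1.22, 1.0 and 2.08 CPM in saline, 1.97, 2.35 and 1.53 CPM at the low dose and 3.6, 2.12 and 3.67 CPM at the high dose. The high-dose pools lay just above the saline pools, and the change was 1.13 ± 0.31 (2.18-fold, adjusted p = 0.00353) on 40 and 78 UMIs. Jchain, a gene of antibody-secreting B cells, had 53 UMIs with saline, 350 at the low dose and 6935 at the high dose. Of the 350, 346 lay in a single pool and 292 in a single cell. It was found in 0.24% of CD8+ T cells with saline, 0.19% at the low dose and 7.19% at the high dose. Of the 66 CD8+ T cells with a Pou2af1 UMI there, 17 also had Jchain, and they held 24 of the 78 Pou2af1 UMIs. With the cells that had a Jchain UMI left out, the change was 0.71 (adjusted p = 0.0782), which no longer passed the threshold, and with library size scaling it was 0.60 (adjusted p = 0.0897). Scaled by library size, the summed level of 7 plasma cell genes, of which Ighg2c was at 0, was between 36.6 and 46.7 CPM in saline, between 43.3 and 150 CPM at the low dose and between 210 and 400 CPM at the high dose. Of that sum over the group, Jchain itself made up 2.38 CPM with saline and 244 CPM at the high dose, while Igkc was at 37.3 and 39.7 CPM. The sum of 12 B cell genes was between 231 and 249 CPM in saline, between 229 and 300 CPM at the low dose and between 389 and 399 CPM at the high dose, where Pax5 was at 0 and 9493 UMIs were of Ighm.

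Every member was lower in CD8+ than in CD4+ T cells of the saline mice, with pool as a block. The Cd8b1 UMIs in CD4+ T cells, whose level fell with dose, limit all comparisons between the lineages, and their part was not tested. Cxcr5 differed by −3.35, Maf by −3.06, Bcl6 by −2.34, Pou2af1 by −2.04, Slamf1 by −0.42 and Sh2d1a by −0.32 on the log2 scale, all past the threshold, where 40.4% of genes were called and 18.9% were lower in CD8+ T cells. With high-dose CSA the change itself differed between the lineages for all 6 members, where 19.8% of genes were called. Slamf1 fell further in CD8+ than in CD4+ T cells (difference −0.86 ± 0.16, adjusted p = 0.00026), and Bcl6 fell less (1.05 ± 0.33, adjusted p = 0.0258). The change was more positive in CD8+ than in CD4+ T cells for Maf (0.76 ± 0.12, adjusted p = 3.71e-05), Pou2af1 (1.27 ± 0.35, adjusted p = 0.0101) and Sh2d1a (0.22 ± 0.06, adjusted p = 0.0126). Their levels at the high dose differed by −2.30, −0.78 and −0.10 (CD8+ minus CD4+, log2), so none was higher in CD8+ T cells. For Cxcr5 the test passed (adjusted p = 0.026), but its size depends on how the absent CD8+ counts are treated. Leaving out 1 pool ended the call for Sh2d1a (without the second saline or the third high-dose pool, 0.21 and 0.16), Cxcr5 (without any high-dose pool, from −3.66 to −3.10), Pou2af1 (without the first or the second saline pool, 1.10 and 1.12) and Bcl6 (without the second or the third saline pool, 0.92 and 1.02, or the first or the third high-dose pool, 0.91 and 1.08). DESeq2 called none of these 4 (adjusted p between 0.159 and 0.336). In the low-dose group no member's change was called different between the lineages, where 3.65% of genes were.

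Counted as cells, the share with at least 1 UMI depends on the depth of each cell. It was therefore also taken after thinning to 2000 UMIs per cell, with cells under 2000 UMIs left out. The median of C4 was 2475 UMIs with saline, 1506 at the low dose and 2053 at the high dose. The thinned shares thus do not cover all cells, and lack more of C4 at the low dose. Cxcr5 was seen in 534 of 4058 CD4+ T cells in saline, 324 of 2969 at the low dose and 29 of 3064 at the high dose, or 13.2%, 11% and 0.94% as means of pools. After thinning these were 9.42%, 5.74% and 0.39%. In naive-like C9, Cxcr5 was seen in 1, 4 and 0 cells of 110, 105 and 94. For Slamf1 in CD4+ T cells the shares were 25.3%, 24% and 9.45%, and 16.2%, 11.3% and 3.19% after thinning. Cxcr5 in CD8+ T cells was seen in 108 of 4639, 75 of 2662 and 0 of 3532 cells, and the last allows a share of up to 0.0849% of cells with a UMI, which is no limit on cells that express the gene. Such limits and intervals cover counting error only.

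Both Bcl6 and Cxcr5 were found in 111 CD4+ T cells in saline, 56 at the low dose and 3 at the high dose. A Bcl6 UMI was seen in 20.8%, 17.3% and 10.3% of the cells with Cxcr5 and in 4.65%, 4.08% and 1.98% of those without, a description in which deeper cells count in both.

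TEa cells, which share 1 antigen receptor, numbered 123, 130 and 27, too few for a test by pool. Cxcr5 had 28, 29 and 0 UMIs in them, or 52.8, 37.9 and 0 CPM scaled by library size, with exact Poisson 95% intervals of 35.1 to 76.3, 25.4 to 54.4 and 0 to 16.1. Other CD4+ T cells were at 57.3, 31.8 and 1.87 CPM on that scale. Slamf1 was at 79.2 CPM (57.1 to 107.1) in saline, 90.2 CPM (70.1 to 114.1) at the low dose and 8.70 CPM (1.05 to 31.4) at the high dose. Bcl6 had 19, 13 and 2 UMIs. Of the TEa cells, 33, 3 and 0 were in C4.

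Of 24 other genes of the TFH programme, a list chosen with earlier results of these data known, 23 were tested in CD4+ T cells at the high dose, and 20 were lower and 1 was higher. Their median log2 change was −1.65 beside −0.01 for all genes, of which 35.8% were lower and 34.7% higher. Sostdc1, a secreted protein made by some TFH cells, went from 2045 to 1619 to 0 UMIs, at least 698-fold lower at the high dose. Tox2, a transcription factor of TFH cells, changed by −5.76 ± 0.22, the cytokine Il21 by −4.30 ± 0.18, the ATP receptor P2rx7 by −3.88 ± 0.14 and Pdcd1, which encodes PD-1, by −3.40 ± 0.14. In CD8+ T cells 18 of 22 were lower and 3 higher, with a median of −1.18, where 36.9% of all genes were lower and 37.1% higher. There Tox changed by −4.07 ± 0.10, P2rx7 by −3.74 ± 0.47 and Izumo1r by −3.43 ± 0.23, Il21 went from 146 UMIs to 1, and Sostdc1 from 206 to 0, at least 60.7-fold lower. At the low dose 25.6% of all genes were lower and 26.1% higher in CD4+ T cells, and 30.3% and 29.9% in CD8+ T cells. Of the list, 10 were lower and 5 higher of 23 in CD4+ T cells (median −0.15), among them Il4 at 1.13 ± 0.37, Irf4 at −0.81 ± 0.13, Tox at −0.60 ± 0.07, Il6st at −0.59 ± 0.11 and Cd40lg at 0.58 ± 0.06, and 7 lower and 4 higher of 22 in CD8+ T cells (median −0.04), among them Sostdc1 at 0.89 ± 0.20.

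The other SLAM receptors and SAP partners did not follow Slamf1 as a group. At the high dose in CD4+ T cells 5 of 8 were lower and 3 higher (median −0.32), where 70.5% of all genes were called, and in CD8+ T cells 74.0% were. Ptpn11, which encodes the phosphatase SHP-2 that competes with SAP, changed by −1.78 ± 0.06, the SAP-bound kinase Fyn by −0.89 ± 0.05 and Slamf6 by −0.66 ± 0.06, whereas Cd48 rose by 0.67 ± 0.04 and Slamf7 by 0.60 ± 0.09. Slamf7 was not called with library size scaling, under which 6 of 8 were lower and 1 higher. In CD8+ T cells the counts were also 5 lower and 3 higher, with Ptpn11 at −1.58 ± 0.07, Fyn at −1.09 ± 0.05, Cd48 at 0.54 ± 0.04 and Ptpn6 at 0.53 ± 0.05, but none was higher with library size scaling. With 5 mg/kg the counts were 3 lower and 2 higher in CD4+ T cells and 4 lower and 2 higher in CD8+ T cells. Of all genes, 51.7% and 60.2% were called in these contrasts.

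Genes that oppose Bcl6 or mark non-follicular T cells showed no common direction at the high dose: of 15, 6 were lower and 7 higher in CD4+ T cells (median 0.02) and 7 lower and 5 higher in CD8+ T cells (median −0.14). In CD4+ T cells Id2, an inhibitor of E proteins, rose by 1.20 ± 0.06 and Klf2 by 0.94 ± 0.04, while Stat5b changed by −1.54 ± 0.08, Il7r by −1.04 ± 0.09 and Il2ra by −0.95 ± 0.09. With library size scaling the CD4+ count was 11 lower and 3 higher. With low-dose CSA it was 7 lower and 3 higher in CD4+ T cells and 8 lower and 5 higher in CD8+ T cells. The corepressors that Bcl6 recruits were 4 lower and 1 higher of 5 in both lineages at both doses, where 51.7% and 70.5% of all genes were called in CD4+ and 60.2% and 74.0% in CD8+ T cells. With 50 mg/kg in CD4+ T cells Tbl1xr1 changed by −0.88 ± 0.07, Bcor by −0.81 ± 0.08 and Ncor1 by −0.29 ± 0.04, and Hdac3 rose by 0.61 ± 0.08. The rise of Hdac3 in CD8+ T cells (0.53 ± 0.07) was not called with library size scaling.

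At the high dose 70.5% of all genes were called in CD4+ and 74.0% in CD8+ T cells. At the low dose 51.7% and 60.2% were. Of 5 further Maf and Bach genes tested, 2 were higher and 1 lower in CD4+ T cells at the high dose, with Bach1 at −1.34 ± 0.20 and Bach2 at 0.43 ± 0.13. In CD8+ T cells 1 was lower, Bach1 at −0.83 ± 0.15. With library size scaling none of these was higher. In the low-dose group the counts were 2 higher and 2 lower in CD4+ T cells and 2 higher and 1 lower in CD8+ T cells. The octamer factors that Pou2af1 assists, Pou2f1 and Pou2f2, were both lower at the high dose, Pou2f1 by −1.40 ± 0.13 in CD4+ and −1.35 ± 0.12 in CD8+ T cells and Pou2f2 by −0.24 ± 0.06 and −0.43 ± 0.06. At the low dose Pou2f1 was lower and Pou2f2 higher in both lineages.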

How the data were processed

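The deposited values were unnormalized UMI counts of every gene in every cell, made by the authors from 10x 5' libraries after their own filtering of cells, and no doublets were called again here. The submitters' processing notes name Cell Ranger, Seurat 3.0.0 and mm10. Pool, treatment, cluster and TEa mark of each cell came from the deposited tables. CD8+ clusters, numbered 1 to 9 there, were matched to C0 to C8 by their cell numbers per treatment and checked against markers. Cells marked TEa were left out unless stated.

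Counts were summed per pool and tested by edgeR's quasi-likelihood method (version 4.0.16 in R 4.3.3) in 1 fit over 9 pools, after filterByExpr and TMM scaling, and p-values were adjusted over all genes by Benjamini-Hochberg, with a threshold of 0.05. Within clusters, a pool needed 10 cells and a group 2 such pools. Lineages were compared with pool as a block. Promoters came from RefSeq (GRCm38.p6), 250 bases before each start. The script was tested on simulated data.

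The members, the gene lists (TFH programme, SLAM family and SAP, Bcl6 antagonists, Bcl6 corepressors, Maf family, octamer factors, and markers of T, CD4+ T, CD8+ T, B, plasma, myeloid, erythroid, Treg and Th17 cells) and the tests were chosen with earlier results of these data known. Named were the 6 members, up to 5 genes of each list with the largest changes past the threshold, and the 3 genes most like each member. Cd244a and Nrl were not in the table under these symbols. Some genes that the rule would name are not reported here. Alternatives were DESeq2 1.42.0, library size scaling, no filter on low counts, a fit of the compared groups alone, the hashtag number as a block, each pool left out, TEa cells included, cells of at least 2000 UMIs, cells with B cell UMIs left out, C2 left out, 20 cells per pool, shares of cells as weights and thinning to 1000 UMIs. Leaving out cells with Jchain, cells with a shared barcode and CD8+ C5 was added after seeing the data. Pools with the same number carried different hashtags and did not deviate together (correlations from −0.31 to 0.18), so the number does not pair them.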

Additional observations from a re-analysis of the deposited data

Results flagged for a closer look

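The change at the high dose differed between CD8+ and CD4+ T cells for all 6 members (CD8+ minus CD4+, log2, interaction term in edgeR with pool as a block). The limit from Cd8b1 UMIs in CD4+ T cells holds here too. Slamf1 was at −0.86 and Maf at 0.76, and both kept the call under every alternative run. Sh2d1a was at 0.22, and it lost the call with library size scaling (0.16, adjusted p = 0.0711), with DESeq2 (adjusted p = 0.208), without the second saline pool (0.21) and without the third high-dose pool (0.16). Cxcr5 was at −3.47, a size that depends on how counts of 0 are treated, and it lost the call without the pool block (adjusted p = 0.0599), with DESeq2 (adjusted p = 0.159) and without any 1 of the high-dose pools (from −3.66 to −3.10). Pou2af1 was at 1.27, and it lost the call with DESeq2 (adjusted p = 0.314) and without the first or second saline pool (1.10 and 1.12). Bcl6 was at 1.05, and it lost the call with DESeq2 (adjusted p = 0.336), without the second or the third saline pool (0.92 and 1.02) and without the first or the third high-dose pool (0.91 and 1.08).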

How the results depend on the processing

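Of the member values and numbers of genes called, 388 of 399 in CD4+ T cells, 387 of 399 in CD8+ T cells, 411 of 420 outside C4, 418 of 450 between lineages and 2278 of 2458 within clusters kept their side of the threshold and, where past it, their direction (numbers within 1.5 times). Values past the threshold in neither fit were counted as kept even where their direction turned. Why the remaining values and numbers changed was not tested. With library size scaling, the change in CD4+ T cells at the low dose was 0.012 for Sh2d1a, 0.030 for Maf and −0.60 for Pou2af1, and at the high dose −0.49, −0.54 and −0.61. In CD8+ T cells it was −0.014 for Sh2d1a and −0.81 for Bcl6 at the low dose, and −0.33 for Sh2d1a, 0.15 for Maf and 0.60 for Pou2af1 at the high dose. Sh2d1a then turned to −0.33 in CD4+ C5, −0.064 in CD8+ C0 and −0.36 in CD8+ C3. Outside C4, it gave 0.09 for Sh2d1a, 0.05 for Maf and −0.45 for Bcl6 at the low dose, and −0.42 for Sh2d1a and −0.53 for Maf at the high dose. Slamf1 in CD4+ T cells at the low dose was −0.26 with DESeq2 (adjusted p = 0.0785), −0.21 with TEa cells (adjusted p = 0.0741) and from −0.31 to −0.14 without 1 pool. Without Jchain cells, Pou2af1 in CD8+ T cells was 0.71. Without C2 and C4, Cxcr5 at the low dose was −0.55 and Sh2d1a at the high dose 0.16. Between the doses in CD8+ T cells, Bcl6 was −1.04 with DESeq2 and −0.53 without C5, Sh2d1a was −0.11 without C5, and Pou2af1 was 1.03 without C5, 1.15 without cells with B cell UMIs and 0.93 without the second high-dose pool.

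Between the lineages, DESeq2 called 1920 genes in saline (4445 in edgeR), 1815 at the low dose (3772) and 1382 at the high dose (3342). For the difference of the change it called 256 (402) at the low and 664 (2173) at the high dose. At the low dose this number was 219 without the pool block and from 167 to 479 without 1 pool, with 220 and 167 without the first or the second saline pool and 203 and 169 without the first or the second low-dose pool. With the hashtag number as a replicate block, the calls against saline were 5413 and 7433 genes in CD4+ and 6464 and 7977 in CD8+ T cells, and no member's call changed. Levels expected from cluster shares moved in 11 of 24 cases with shares of cells as weights, and shares of cells with a UMI in 36 of 36 with thinning to 1000 UMIs. Depth limits Pou2af1, Bcl6 in CD8+ T cells, C4 at the high dose and TEa cells.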

Other observations

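Marker genes of T cell types moved with dose beside the members (CPM scaled by library size, the range over 3 pools). The 4 Treg genes summed to between 327 and 346 CPM in CD4+ T cells of saline mice, between 202 and 264 CPM at the low dose and between 115 and 129 CPM at the high dose. That sum does not follow Foxp3, the defining gene of Treg cells, which over each group was at 8.17, 5.81 and 9.05 CPM, while Ikzf2 went from 118 to 12.1 CPM and Il2ra from 102 to 39.1 CPM. Cluster C11, named Treg by the authors, held 0.47%, 0.83% and 1.92% of CD4+ T cells. The 5 Th17 genes, which mark cells in which Maf was high, went from a range of 11.4 to 21.8 CPM to one of 0.61 to 1.45 CPM at the high dose, where Il17a and Il23r were at 0. The 7 T cell genes were between 4201 and 4289 CPM in CD4+ T cells of saline mice and between 4843 and 4889 CPM at the high dose. Cd4 and its 2 companion genes lay between 947 and 991 CPM in these saline pools, and between 470 and 489 CPM at the high dose, and the 2 CD8 genes lay between 1864 and 1971 CPM and between 3156 and 3505 CPM in CD8+ T cells.

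Genes of other cells were present at lower levels. The 12 myeloid genes summed to between 162 and 229 CPM in CD4+ T cells with saline and between 142 and 250 CPM at the high dose. The 7 erythroid genes were between 7.31 and 18 CPM and between 29.6 and 39.4 CPM. Jchain in CD4+ T cells had 8, 16 and 432 UMIs over the 3 groups, and 268 of the 432 were in a single cell. The part of these genes in the results for the members was not tested.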
